A study of Mus with 9 samples.

Results

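The renin-angiotensin genes studied here are Agt, Ren1, Atp6ap2, Ace, Agtr1a, Mas1, Enpep, Mme and Ctsa, 9 genes chosen by symbol out of 54532 in the deposited table. All 9 were detected and all 9 passed the filter on low counts. Their levels were measured by RNA sequencing in kidney RNA from 9 male C57BL/6 mice, 3 per group. Every mouse, controls included, had lost one kidney by unilateral nephrectomy at 18 months of age. Mice of the 18 mo group were killed 1 week later. The 21 mo group then received intraperitoneal saline daily for 12 weeks, and the 21 mo/O304 group received O304, a small-molecule activator of the energy-sensing kinase AMPK, at 10 mg/kg per day for the same time. Age, time since surgery and injections therefore cannot be told apart between the 18 mo group and the others. The labels give the tissue as kidney without naming a region.

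In this system the aspartyl protease renin cuts angiotensinogen to angiotensin I, and angiotensin-converting enzyme trims angiotensin I to angiotensin II, which constricts vessels and promotes sodium retention through its type 1 receptor. Other peptidases shorten these peptides further, and one product, angiotensin 1-7, acts on the receptor Mas with effects that oppose angiotensin II. Renin is made in the kidney by juxtaglomerular cells of the afferent arteriole, whereas angiotensinogen, the converting enzyme and several of the peptidases are found in proximal tubule cells, the peptidases on their brush border. The kidney thus holds a local system beside the circulating one. Levels of RNA do not measure the enzymes' activity or the peptides.

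The libraries held between 15636378 and 18396725 counts on genes, so that 1 count was worth 0.0458 to 0.0669 CPM (counts per 1000000 of the normalized library size). Mice of 1 group varied by 18.1% (18 mo), 44.1% (21 mo) and 20.6% (21 mo/O304), as the biological coefficient of variation. In the 21 mo group, replicates 2 and 3 stood apart from replicate 1. A list of 10 proximal tubule markers summed to between 33490 and 41670 CPM in the 18 mo group and to between 38960 and 44570 CPM under O304, and to 32940, 9623 and 1924 CPM in replicates 1 to 3 of the 21 mo group. No marker of that list was at 0, and 9 of 10 lay below the 18 mo range in each of replicates 2 and 3. The sum of 8 tubule injury markers was 98.8%, 691% and 1077% of the 18 mo mean in replicates 1 to 3 of the 21 mo group. In bulk RNA, fewer cells of a type and less RNA per cell cannot be told apart.

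Of the 9 genes, the Mas receptor gene Mas1, the converting enzyme gene Ace and the renin gene Ren1 had the lowest levels in 21 mo relative to 18 mo mice, with fitted levels 4.18-fold, 2.88-fold and 2.38-fold lower. Mas1 held only 11 to 57 counts per library, and its reads cannot be told apart from those of the overlapping noncoding RNA Airn. The log2 fold change of Ren1 was −1.25, and −0.44 without the 18 mo mouse at 41.8 CPM. Under O304 the fitted level of Ace was 2.23-fold that of the 21 mo group. The cathepsin gene Ctsa and the prorenin receptor gene Atp6ap2 differed little, and Agt, Mme and Enpep varied among mice of every group. None of these differences passed edgeR's test across all genes.

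With edgeR's quasi-likelihood test over 15902 genes, 0 of 9 renin-angiotensin genes had an adjusted p under 0.05 in 21 mo against 18 mo, where the share over all genes was 0.0189%. At an unadjusted p under 0.05 there were 2, Ace and Mas1, against 26.1% of all genes. Both were lower, as were 12% of all genes at that level. Ren1, Ace and Mas1 were lower in every 21 mo library than in any 18 mo library, 3 of 9, and 15.3% of all genes were lower without overlap. DESeq2 placed 1 of 9 past the threshold (Mas1), where its share over all genes was 12.3%, and limma-trend on FPKM 0. limma voom with sample quality weights placed 4 (Ace, Agtr1a, Mas1 and Ren1), and 52.9% of all genes. The last fit gave replicate 2 of the 21 mo group a weight of 9.11 and its replicates 1 and 3 weights of 0.223 and 0.132. For 21 mo/O304 against 21 mo the edgeR count was 0 of 9, against 0% of all genes. At an unadjusted p under 0.05 it was also 0, against 20.7% of all genes. No renin-angiotensin gene separated these 2 groups without overlap, as 21.3% of all genes did. DESeq2 and limma-trend placed 0 past the threshold and voom with weights 2 (Ace and Agtr1a), where DESeq2 called 5.75% and voom 41.1% of all genes.

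**Figure D1:**
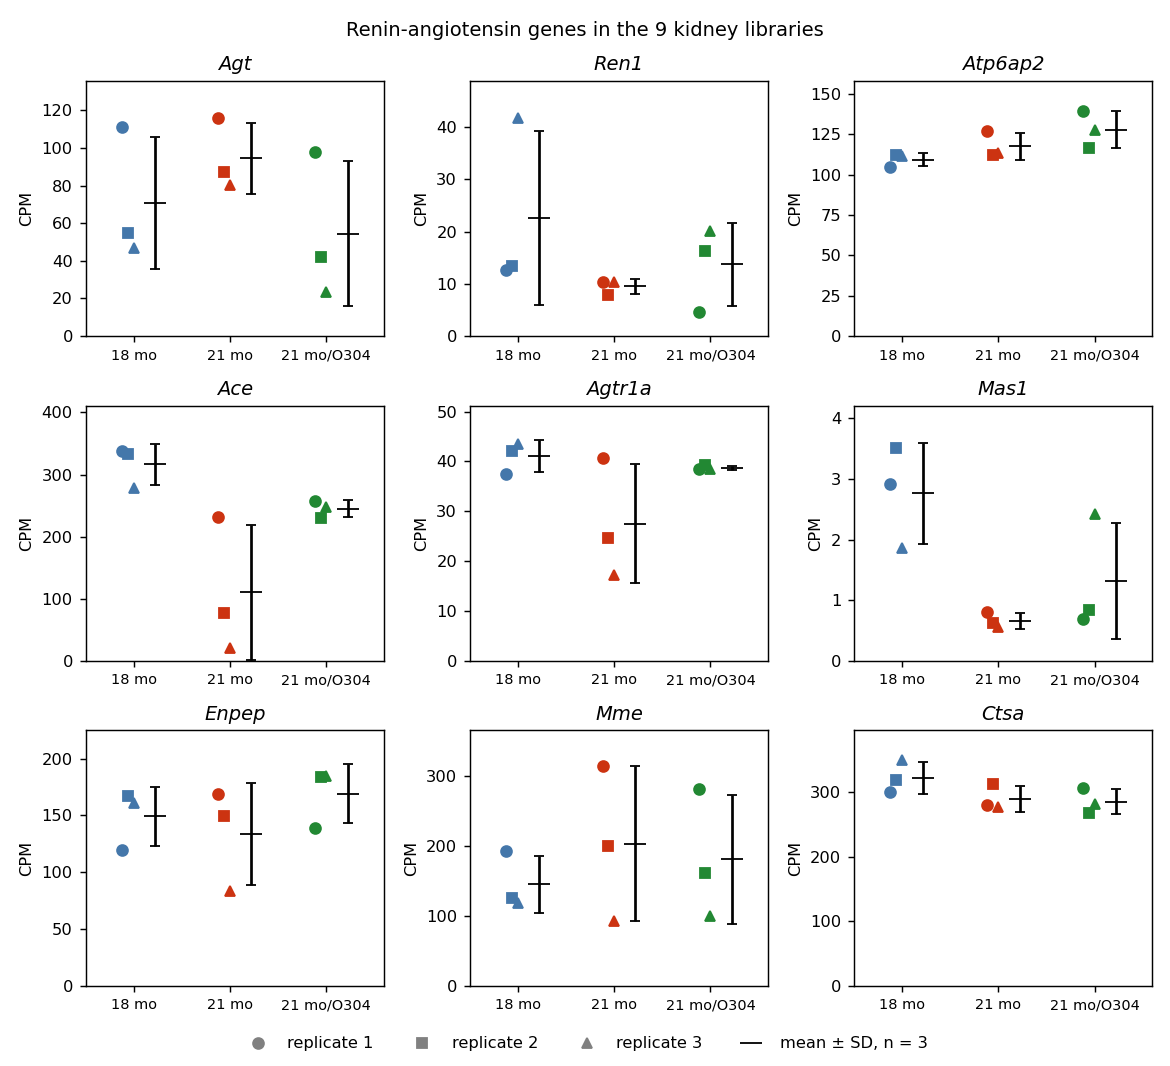
Level of each gene in CPM (vertical axes, from 0) in the 3 mice of each group, with symbols for the replicate number and bars for the mean ± SD (n = 3). Ace in 21 mo mice spans 231 to 21.4 CPM, while Ctsa and Atp6ap2 stay within narrow ranges in all groups and Ren1 of the 18 mo group is set apart by 1 mouse at 41.8 CPM.

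Levels can be compared between genes only per gene length, which the authors' FPKM provide (fragments per kilobase of gene and per 1000000 fragments). In the 18 mo group the order ran from Ctsa at 66.4 ± 5.49 FPKM and Ace at 58.1 ± 6.06 FPKM through Atp6ap2 at 40.5 ± 2.04, Agt at 36.3 ± 17.6 and Enpep at 30.8 ± 5.64 FPKM to Agtr1a at 14.3 ± 1.23, Ren1 at 13.2 ± 9.71 and Mme at 12.1 ± 3.30 FPKM (SD of 3 mice each). Mas1 was last, at 1.02 ± 0.315 FPKM (SD, n = 3). Neighbors in this order overlapped in their mice except at 3 steps, from Ace to Atp6ap2, from Enpep to Agtr1a and from Mme to Mas1. Genes farther apart overlapped too, since the highest Agt mouse, at 56.4 FPKM, was above the lowest Ace mouse, at 51.1 FPKM, and the highest Ren1 mouse, at 24.44 FPKM, was just above the lowest Enpep mouse, at 24.35 FPKM.

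In the 21 mo group Ace had the fifth place, at 20.2 ± 19.9 FPKM (SD, n = 3), and its mice overlapped those of both Enpep above and Mme below it. Agt stood second at 48.4 ± 9.84 FPKM, overlapping Ctsa and Atp6ap2. Under O304, Ace had the third place, at 44.9 ± 2.53 FPKM, and overlapped Atp6ap2 but not Enpep. Ctsa stood first and Mas1 last in each of the 3 groups.

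**Figure D2:**
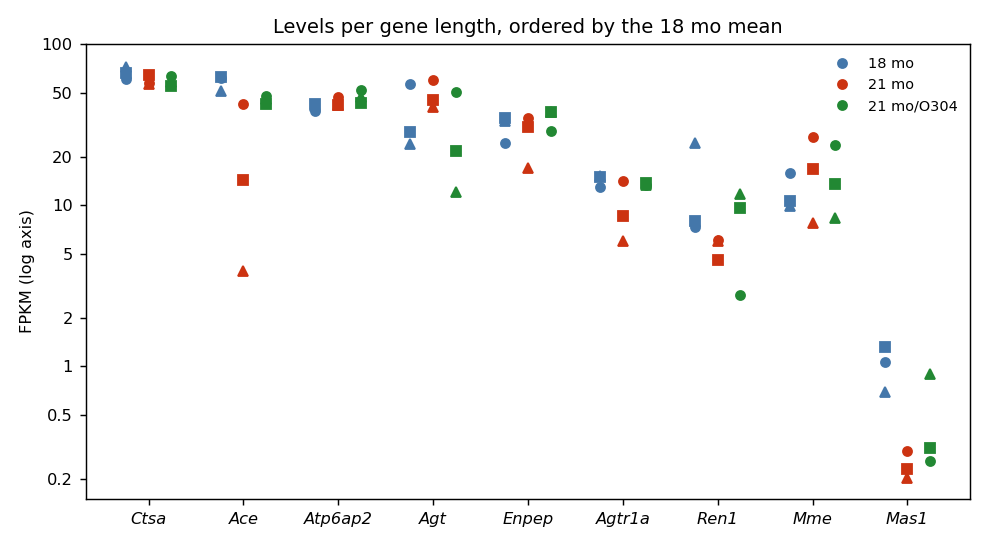
FPKM of each gene per library on a log axis, with genes ordered by their 18 mo mean, colors for groups and symbols for replicate numbers (circle, square and triangle for replicates 1, 2 and 3). Ctsa lies between 55.2 and 71.9 FPKM in every library, Ace reaches down to 3.89 FPKM in a 21 mo mouse, and Mas1 is the lowest in every library.

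Agt encodes angiotensinogen, the substrate from which all angiotensin peptides are cut. It lies on chromosome 8 from 124556534 to 124569706 on the minus strand (GRCm38 coordinates of the table, as for all genes here). Its levels were 111.3, 54.6 and 47.0 CPM in 18 mo mice 1 to 3, 116, 87.5 and 80.2 CPM in 21 mo mice and 97.7, 42.1 and 23.4 CPM in O304 mice. All groups overlapped, since the first mouse of each was near 100 CPM. The log2 fold change of Agt was 0.41 (SE 0.50, adjusted p = 0.615, edgeR) in 21 mo against 18 mo and −0.80 (SE 0.50, adjusted p = 0.362) in 21 mo/O304 against 21 mo. Leaving out 1 library moved the first to between 0.21 (without 18 mo replicate 3) and 0.89 (without 18 mo replicate 1), and the second to between −1.54 (without O304 replicate 1) and −0.44 (without O304 replicate 3). In the 21 mo group Agt did not follow the proximal tubule markers, being at 113% of the 18 mo mean in replicate 3, where the summed markers were at 5.30%. The liver is the main source of circulating angiotensinogen. A list of 7 liver markers summed to between 369 and 472 CPM in 18 mo mice, to 1030, 485 and 157 CPM in 21 mo mice and to 609, 459 and 256 CPM in O304 mice, mostly from Apob and Ttr. Alb, its defining member, was at 0.504 to 16.9 CPM in the 9 libraries, and Serpina1c was at 0 in 21 mo replicate 3. Adipocytes also make angiotensinogen, and the summed level of 6 adipocyte markers was 12.3 to 146 CPM under O304 and 1.23 to 11.4 CPM in the other 6 libraries. The part of the liver and adipocyte markers in the level of Agt was not tested.

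Ren1 encodes renin, whose release by juxtaglomerular cells sets the pace of the cascade, and C57BL/6 mice carry this gene as their single renin gene. It lies on chromosome 1 from 133350510 to 133360325. Ren1 was at 12.6, 13.5 and 41.8 CPM in 18 mo mice 1 to 3 and at 10.4, 7.84 and 10.3 CPM in 21 mo mice. In the 21 mo/O304 group it was at 4.71, 16.3 and 20.1 CPM. Each 21 mo mouse was below each 18 mo mouse, but by a small margin except for replicate 3 of the 18 mo group, and the O304 mice lay on both sides of the 21 mo range. The log2 fold change of Ren1 in 21 mo against 18 mo was −1.25 (SE 0.58, adjusted p = 0.209, edgeR's test), and −0.44 without replicate 3 of the 18 mo group. It was 0.53 (SE 0.58, adjusted p = 0.596) in 21 mo/O304 against 21 mo, and 0.92 without replicate 1 of the O304 group. For O304 against 18 mo the value was −0.72 (SE 0.57, adjusted p = 0.730), which turned to 0.08 without replicate 3 of the 18 mo group.

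Atp6ap2 encodes the prorenin receptor, which is also an accessory subunit of the proton pump of acidic vesicles. It lies on the X chromosome from 12587801 to 12617049. It was the steadiest in 18 mo mice relative to its level, with 104.5, 112.3 and 111.3 CPM, followed by 127.3, 112.1 and 113 CPM in 21 mo mice and 139, 117 and 127.4 CPM in O304 mice. All O304 mice were above all 18 mo mice, the 1 renin-angiotensin gene of 9 that was higher in this way, against 13.2% of all genes. That log2 fold change of Atp6ap2 was 0.22 (SE 0.12, adjusted p = 0.583, edgeR), and the values for 21 mo against 18 mo and for O304 against 21 mo were smaller, at 0.10 (SE 0.12, adjusted p = 0.594) and 0.12 (SE 0.12, adjusted p = 0.552). Atp6ap1, the other accessory subunit of the same pump, was likewise higher in all O304 mice than in all 18 mo mice, at 246, 218 and 233 CPM against 196, 207.5 and 193.5 CPM.

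Ace encodes angiotensin-converting enzyme, a zinc dipeptidyl carboxypeptidase found on endothelium and, in the kidney, on the proximal tubule brush border. It lies on chromosome 11 from 105967945 to 105989964. Ace was at 337, 334 and 278 CPM in 18 mo mice. In replicates 1 to 3 of the 21 mo group it was at 231, 77.6 and 21.4 CPM, which is 73.1%, 24.5% and 6.76% of the 18 mo mean. In the 21 mo/O304 group it was at 258, 230 and 247 CPM. Thus all 3 mice of the 21 mo group were below the 18 mo range, by very different amounts, and the O304 mice lay close together, with replicate 2 just under the highest 21 mo mouse.

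The log2 fold change of Ace in 21 mo against 18 mo was −1.52 (SE 0.65, adjusted p = 0.178, edgeR), a 2.88-fold lower fitted level. Leaving out 21 mo replicate 1 gave −2.66 (adjusted p = 0.00803, edgeR), and leaving out 21 mo replicate 3 gave −1.05. The former fit called 4186 genes over all in this comparison, where all 9 libraries gave 3. In 21 mo/O304 against 21 mo the log2 fold change of Ace was 1.15 (SE 0.64, adjusted p = 0.316). Without the same replicates in turn it was 2.30 (adjusted p = 0.0143, edgeR) and 0.67. Here the fit without 21 mo replicate 1 called 3808 genes over all, where all 9 libraries gave 0. The O304 mice were also below all 18 mo mice, at 72.7% to 81.4% of the 18 mo mean, with log2 fold change −0.37 (SE 0.63, adjusted p = 0.901). Ace was the 1 gene of 9 that was lower in this way, and 13.3% of all genes were. In replicates 2 and 3 of the 21 mo group Ace and the proximal tubule markers were low together, the marker sum being at 26.5% and 5.30% of its 18 mo mean, whereas under O304 the sum was at 107% to 123%. Endothelial cells also carry Ace, and 7 of 7 endothelial markers had fitted values below 0 in 21 mo against 18 mo (median log2 fold change −0.34), beside 47.3% of all genes. At an unadjusted p under 0.05 (edgeR) there were 0, against 26.1% of all genes. The endothelial markers summed to 97.4%, 68.7% and 51.5% of their 18 mo mean in replicates 1 to 3 of the 21 mo group. The part of the tubule and endothelial markers in the level of Ace was not tested. Kap, an androgen-dependent kidney protein, made up much of the proximal tubule sum. Without it, a choice made after its values were seen, the other 9 markers were at 92.4%, 46.1% and 11.5% of the 18 mo mean in replicates 1 to 3 of the 21 mo group.

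**Figure D3:**
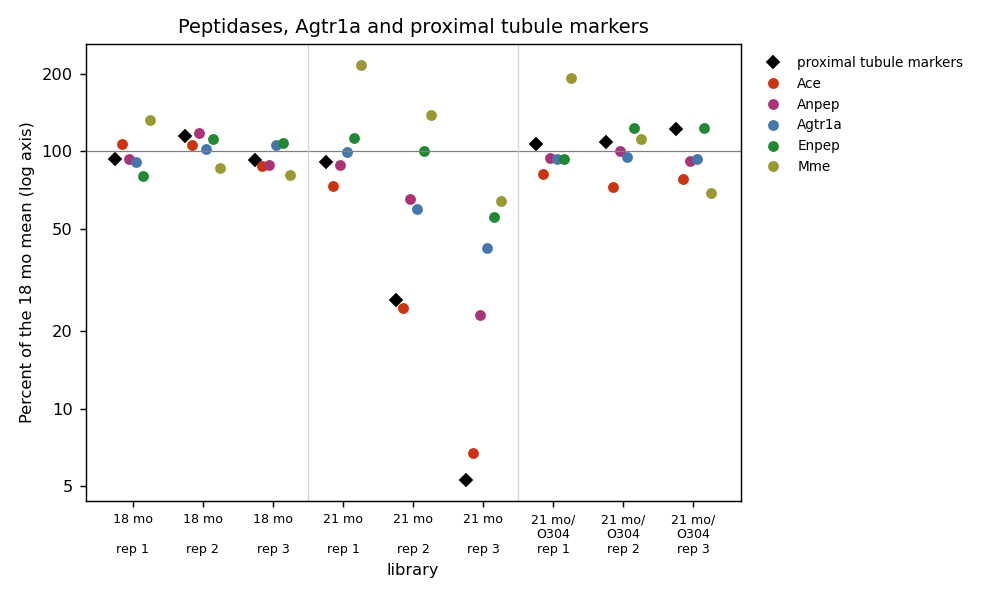
Level of 4 peptidase genes (Ace, Anpep, Enpep and Mme), of Agtr1a and of the summed proximal tubule markers in each library, as a percentage of the 18 mo mean on a log axis (100 is the grey line). In replicates 2 and 3 of the 21 mo group, Ace at 24.5% and 6.76% lies beside the marker sum, much of which comes from Kap. Without Kap (not shown) the sum was at 46.1% and 11.5%. Enpep and Mme in replicate 3 remain at 55.6% and 64.0%.

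Enpep, Mme and Ctsa encode peptidases that act after renin. Enpep is glutamyl aminopeptidase, which turns angiotensin II into angiotensin III, and lies on chromosome 3 from 129269175 to 129332720. Enpep was at 120, 167 and 161 CPM in 18 mo mice, at 169, 149 and 82.9 CPM in 21 mo mice and at 139, 184 and 185 CPM in O304 mice. Only replicate 3 of the 21 mo group was below the range of the 18 mo mice. The log2 fold changes of Enpep were −0.16 (SE 0.26, adjusted p = 0.722, edgeR) in 21 mo against 18 mo and 0.34 (SE 0.26, adjusted p = 0.453) in 21 mo/O304 against 21 mo. The former was 0.07 without replicate 3 of the 21 mo group.

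Mme is neprilysin, which can cut angiotensin I to angiotensin 1-7, and lies on the same chromosome from 63241537 to 63386030. Its values were 192, 125 and 117 CPM in 18 mo mice, 314, 200 and 92.6 CPM in 21 mo mice and 280, 161 and 99.4 CPM in O304 mice. In each group the mice differed at least as widely as the groups did. For Mme the log2 fold change was 0.48 (SE 0.48, adjusted p = 0.534, edgeR) in 21 mo against 18 mo. Under O304 against 21 mo it was −0.16 (SE 0.47, adjusted p = 0.851). The first was 0.03 without replicate 1 of the 21 mo group and 0.81 without its replicate 3. The second was 0.30 without replicate 1 of the 21 mo group and 0.12 without replicate 3 of the O304 group.

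Ctsa is cathepsin A, a lysosomal carboxypeptidase that can remove the last residue of angiotensin I. It lies on chromosome 2 from 164832873 to 164841032 and overlaps Pltp and Neurl2 on the other strand, which held far fewer counts (up to 221 and 26 per library). Ctsa was at 299.9, 319 and 350 CPM in 18 mo mice, at 281, 313 and 277 CPM in 21 mo mice and at 307, 268 and 282 CPM in O304 mice. The groups overlapped, and the log2 fold changes of Ctsa were −0.15 (SE 0.14, adjusted p = 0.502, edgeR), −0.02 (SE 0.14, adjusted p = 0.939) and −0.18 (SE 0.14, adjusted p = 0.736) for 21 mo against 18 mo, O304 against 21 mo, and O304 against 18 mo, respectively. It was thus among the steadiest of the 9, together with Atp6ap2.

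In replicates 2 and 3 of the 21 mo group Ace was at a smaller share of its 18 mo mean than Enpep and Mme, and ratios of FPKM within a library were therefore examined, a choice made after the values were seen. The ratio of Ace to Enpep was 2.51, 1.78 and 1.54 in 18 mo mice, 1.22, 0.464 and 0.230 in 21 mo mice and 1.65, 1.11 and 1.19 in O304 mice. The 21 mo mice lay below all 18 mo mice, and the highest of them lay among the O304 mice. Means were 1.94 ± 0.505, 0.638 ± 0.518 and 1.32 ± 0.289 (SD of 3 mice each). The ratio of Ace to Mme was 3.84, 5.83 and 5.18 in 18 mo mice, 1.61, 0.848 and 0.504 in 21 mo mice and 2.01, 3.11 and 5.42 in O304 mice. In this ratio the 21 mo mice were below both other groups without overlap. The exact permutation p was 0.1, two-sided, the smallest that 3 mice against 3 allow, for both ratios in 21 mo against 18 mo and for Ace to Mme in O304 against 21 mo, and 0.18 after adjustment over the 9 ratio comparisons reported here. For Ace to Enpep in O304 against 21 mo the exact permutation p was 0.3. Between O304 and 18 mo mice both ratios overlapped (exact permutation p = 0.2 and 0.3). The part of the tubule markers in these ratios was not tested.

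The receptors are Agtr1a and Mas1. Agtr1a encodes the main type 1 receptor of angiotensin II in the mouse kidney, found on vessels, mesangial cells and tubules, and lies on chromosome 13 from 30336441 to 30382867. It was at 37.5, 42.2 and 43.6 CPM in 18 mo mice, at 40.7, 24.6 and 17.3 CPM in 21 mo mice and at 38.4, 39.2 and 38.5 CPM in O304 mice. Replicates 2 and 3 of the 21 mo group were thus the lowest of the 9 libraries, and its replicate 1 lay inside the 18 mo range. The log2 fold change of Agtr1a was −0.58 (SE 0.26, adjusted p = 0.195, edgeR) in 21 mo against 18 mo and 0.49 (SE 0.26, adjusted p = 0.295) in 21 mo/O304 against 21 mo. Without replicate 1 of the 21 mo group these values were −0.96 and 0.88, with edgeR adjusted p-values of 0.00737 and 0.0113, and without its replicate 3 they were −0.35 and 0.25. The fit without replicate 1 called 4186 and 3808 genes over all in these comparisons, where all 9 libraries gave 3 and 0. Between O304 and 18 mo the difference was −0.09 (SE 0.26, adjusted p = 0.951). In replicate 3 of the 21 mo group Agtr1a was at 42.0% of the 18 mo mean and Ace at 6.76%. The ratio of Agtr1a to Ace was also chosen after the values were seen, and Ace alone separated the 21 mo from the 18 mo mice. This ratio was higher in all 21 mo mice (0.334, 0.602 and 1.53) than in all 18 mo mice (0.211, 0.240 and 0.297; exact permutation p = 0.1, two-sided). In O304 mice this ratio was 0.283, 0.324 and 0.296, below all 21 mo mice (exact permutation p = 0.1) and overlapping the 18 mo mice (exact permutation p = 0.3). An exact permutation p of 0.1 is the smallest that 3 mice against 3 allow, and it was 0.18 after adjustment over the 9 ratio comparisons. Agtr1b, the second type 1 receptor gene of mice, held at most 1 count per library.

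Mas1 encodes the receptor of angiotensin 1-7. Mas1 lies on chromosome 17 from 12841079 to 12868143 on the minus strand, inside the imprinted Igf2r region, where the long noncoding RNA Airn is annotated across it on the plus strand. Its counts were low, 47, 57 and 33 in 18 mo mice, 12, 11 and 12 in 21 mo mice and 12, 14 and 38 in O304 mice. These correspond to 2.76 ± 0.833, 0.659 ± 0.130 and 1.32 ± 0.957 CPM (SD of 3 mice each). The 21 mo mice lay below the 18 mo mice without overlap, and replicate 3 of the O304 group was inside the 18 mo range while its other two mice were not. The log2 fold change of Mas1 in 21 mo against 18 mo was −2.06 (SE 0.53, adjusted p = 0.0792, edgeR), the largest in size among the 9 genes. It was between −2.26 and −1.86 when any 1 library was left out. Its edgeR adjusted p was 0.0352 without replicate 1 of the 21 mo group, a fit that called 4186 genes over all. DESeq2 gave −2.08 with an adjusted p of 0.00704. For O304 against 21 mo the value was 0.99 (SE 0.54, adjusted p = 0.305), and 0.22 without replicate 3 of the O304 group.

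Airn was lower in the same mice as Mas1. It held 190, 205 and 172 counts in 18 mo mice, 43, 41 and 43 in 21 mo mice and 72, 72 and 122 in O304 mice. Airn had log2 fold changes of −2.25 (SE 0.30, adjusted p = 0.0606, edgeR) and 1.18 (SE 0.30, adjusted p = 0.175) in the same order as those of Mas1. Counts of Mas1 were 24.7%, 27.8% and 19.2% of those of Airn in the 18 mo mice, 27.9%, 26.8% and 27.9% in the 21 mo mice and 16.7%, 19.4% and 31.2% in the O304 mice, and these shares overlapped between all groups. The use of strand in the counting is not given in the sources used here, so reads of Mas1 and of Airn cannot be told apart at this locus, and the level of Mas1 is uncertain in all libraries.

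**Figure D4:**
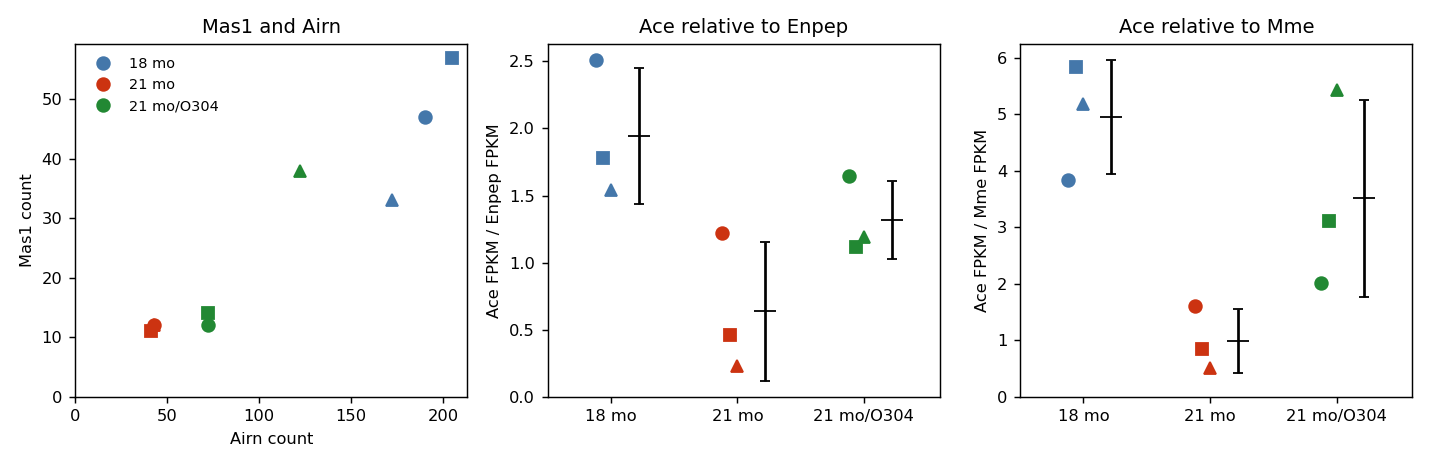
Left, counts of Mas1 against counts of Airn in each library, where the 21 mo mice lie together at 11 to 12 Mas1 and 41 to 43 Airn counts. Middle and right, ratios of Ace to Enpep and of Ace to Mme (FPKM divided by FPKM) per library with the mean ± SD (n = 3), where the 21 mo mice are below all 18 mo mice in both. Symbols are circles, squares and triangles for replicates 1, 2 and 3.

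Side by side, 6 of 9 genes had a fitted value below 0 in 21 mo against 18 mo, with a median log2 fold change of −0.16, beside 47.3% of genes below 0 and a median of 0.03 over all genes. In 21 mo/O304 against 21 mo, 6 of 9 were above 0, with a median of 0.34, beside 48.2% of genes above 0 and a median of −0.02 over all genes. The 2 comparisons share the 21 mo libraries, so their opposite signs are not independent of each other. In 21 mo/O304 against 18 mo, neither group mean includes those libraries. There, 3 of 9 were above 0, beside 50.4% of all genes, with a median of −0.18. At an unadjusted p under 0.05 (edgeR) there were 0 of 9, against 9.66% of all genes. These p-values still rest on a spread estimated over all 9 libraries, the 21 mo group included.

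**Figure D5:**
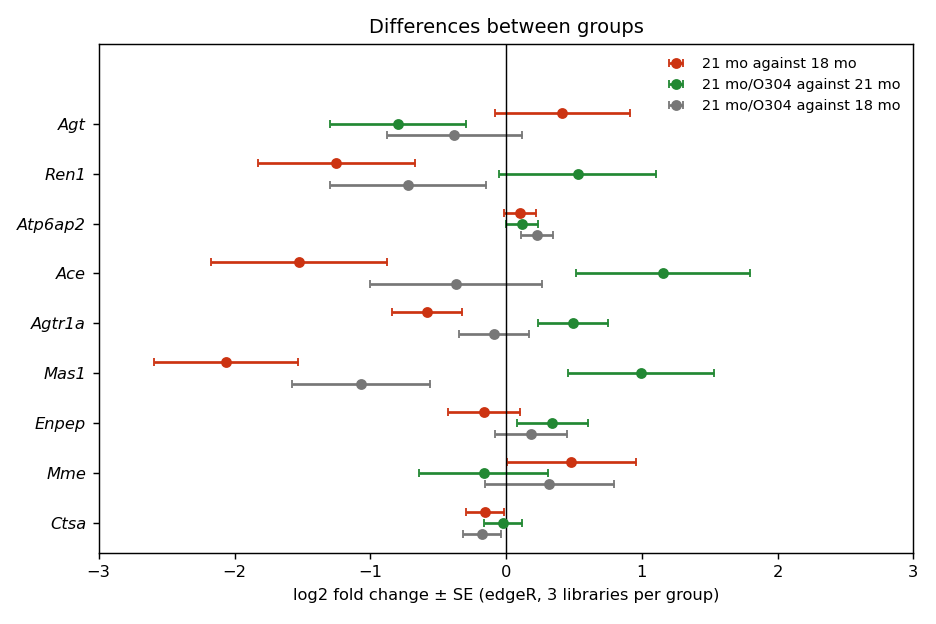
Log2 fold change ± SE of each gene in 3 comparisons (horizontal axis, edgeR, 3 libraries per group). Mas1, Ace and Ren1 have the largest negative values in 21 mo against 18 mo (−2.06, −1.52 and −1.25), and all of their values for 21 mo/O304 against 18 mo are nearer to 0 (−1.07, −0.37 and −0.72). These genes were picked for their size in the former comparison, and both comparisons use the same 18 mo mice. Values nearer to 0 can thus follow from the choice and are not a test of O304.

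For the rest of the system, 20 further genes were listed, of which 13 passed the filter. None of the 13 had an adjusted p under 0.05 with edgeR in any of the 3 comparisons. DESeq2 placed 1 past the threshold and voom with weights 7 in 21 mo against 18 mo, and 1 and 5 in O304 against 21 mo. Their shares over all genes were 12.3% and 52.9% in the former comparison and 5.75% and 41.1% in the latter. The median log2 fold change of the 13 was −0.03 and 0.12 in these comparisons. In 21 mo against 18 mo, 2 had an unadjusted p under 0.05, both lower, where 12% of all genes were. Agtrap, whose product binds the type 1 receptor and promotes its internalization, was at 143 ± 10.5 CPM in 18 mo mice and 97.1 ± 19.1 CPM in 21 mo mice (± SD of 3 mice), without overlap (log2 fold change −0.56, SE 0.16, adjusted p = 0.0849). Klk1, tissue kallikrein, which releases vasodilating kinins and is made in the connecting tubule, was at 1170 ± 208 and 756 ± 60.1 CPM (± SD of 3 mice; log2 fold change −0.63, SE 0.26, adjusted p = 0.170).

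O304 against 21 mo gave 1 of the 13 higher and 1 lower at an unadjusted p under 0.05, against 8.27% and 12.4% of all genes. Klk1 was at 1906, 1095 and 1474 CPM under O304, above all 21 mo mice, with log2 fold change 0.98 (SE 0.26, adjusted p = 0.175). Prep, prolyl endopeptidase, another enzyme able to form angiotensin 1-7, was at 31.6 ± 1.75 CPM against 38.5 ± 4.38 CPM in 21 mo mice (± SD of 3 mice; log2 fold change −0.28, SE 0.12, adjusted p = 0.233). Anpep, aminopeptidase N of the brush border, which shortens angiotensin III, was at 119, 87.9 and 31.2 CPM in 21 mo mice and at 128, 135 and 123.5 CPM under O304. With log2 fold change 0.70 (SE 0.39, adjusted p = 0.316) it missed the threshold. In O304 against 18 mo, 1 of the 13, Rnpep (aminopeptidase B), had an unadjusted p under 0.05, where 9.66% of all genes did, with log2 fold change −0.25 (adjusted p = 0.461). The 7 genes under the filter were the receptors Agtr1b, Agtr2 and Mrgprd and the proteases Cma1, Mcpt4, Ctsg and Cpa3. Agtr2 held at most 2 counts in a library and Mrgprd 0 counts in all 9, which allows up to 3 counts per library, or 0.137 to 0.201 CPM.

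Renin release is governed by the juxtaglomerular cells and by the macula densa, which senses tubular salt. Of 18 listed genes of these cells, 16 were tested and 0 passed the threshold in any comparison with edgeR. DESeq2 placed 4 and voom with weights 12 past it in 21 mo against 18 mo, and 1 and 9 in O304 against 21 mo. Over all genes the shares were 12.3% and 52.9% in the former comparison and 5.75% and 41.1% in the latter. The median log2 fold change of the 16 was −0.14 and −0.09. At an unadjusted p under 0.05, 3 were higher and 1 lower in 21 mo against 18 mo, where 14% and 12% of all genes were. Rgs5, a regulator of G protein signaling in pericytes, was at 16.0, 13.2 and 18.5 CPM in 18 mo mice and at 36.6, 24.6 and 32.5 CPM in 21 mo mice (log2 fold change 0.97, SE 0.21, adjusted p = 0.0630). Ptger4, a prostaglandin E receptor linked to renin release, was at 4.22 ± 0.669 and 12.6 ± 7.10 CPM (± SD of 3 mice; log2 fold change 1.58, SE 0.42, adjusted p = 0.0810). Rbpj, the Notch pathway factor that sustains renin cell identity, was at 28.8 ± 1.79 and 42.6 ± 5.04 CPM (± SD of 3 mice; log2 fold change 0.57, SE 0.13, adjusted p = 0.0702). The gene that was lower was Npr1, the receptor of atrial natriuretic peptide, at 21.4, 15.8 and 22.9 CPM in the 18 mo mice and at 14.3, 12.7 and 14.4 CPM in the 21 mo mice (log2 fold change −0.54, SE 0.20, adjusted p = 0.133). All of these are expressed in other kidney cells too. Macrophage markers summed to between 223 and 333 CPM in 18 mo mice and to 450, 508 and 1487 CPM in 21 mo mice, and smooth muscle and pericyte markers to between 104 and 121 CPM and to 72.1, 112 and 302 CPM. Their part in these values was not tested.

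Under O304 compared with the 21 mo group, 2 of these 16 genes were higher and 2 lower at an unadjusted p under 0.05, where 8.27% and 12.4% of all genes were. Gja5, which encodes connexin 40 of the juxtaglomerular and endothelial gap junctions, was at 1.46 ± 0.325 CPM against 4.54 ± 1.62 CPM (± SD of 3 mice), without overlap (log2 fold change −1.64, SE 0.40, adjusted p = 0.175). Ptger4 was at 4.25, 5.13 and 7.58 CPM against 6.22, 11.4 and 20.3 CPM (log2 fold change −1.16, SE 0.41, adjusted p = 0.191), with overlap. Npr1 was at 15.6, 23.3 and 21.9 CPM, above all 21 mo mice (log2 fold change 0.55, SE 0.20, adjusted p = 0.191). Vdr, the vitamin D receptor, through which vitamin D lowers renin, was at 360, 339 and 358 CPM against 293, 190 and 90.2 CPM (log2 fold change 0.88, SE 0.35, adjusted p = 0.210). In replicates 1 to 3 of the 21 mo group Vdr was at 97.7%, 63.25% and 30.0% of the 18 mo mean. The summed proximal tubule markers were at 90.7%, 26.5% and 5.30% there, and their part in the level of Vdr was not tested. Akr1b7, a marker of renin cells, did not pass the filter and held 3 to 19 counts per library. Its highest value, 1.08 CPM, was in replicate 3 of the 18 mo group, the mouse with the highest Ren1. Its next highest was in replicate 1 of the 21 mo group, where Ren1 was at 45.9% of the 18 mo mean. Genes of the same list went both ways in replicate 3 of the 18 mo group. Gja5 and Adrb1 were the lowest of their group there, at 71.8% and 82.2% of the mean, and Rgs5 and Npr1 the highest, at 117% and 114%.

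Angiotensin II also raises aldosterone, whose targets in the distal nephron retain sodium. All 12 listed genes of that pathway were tested, and 0 passed the threshold in any comparison with edgeR. At an unadjusted p under 0.05, 1 was lower in 21 mo against 18 mo, where 12% of all genes were, and 1 was higher and 2 lower in O304 against 21 mo, where 8.27% and 12.4% were. DESeq2 placed 1 and 3 past the threshold, and voom with weights 5 and 6, where DESeq2 called 12.3% and 5.75% and voom 52.9% and 41.1% of all genes. The median log2 fold change of the 12 was 0.11 and −0.12. Slc12a3, the thiazide-sensitive sodium chloride cotransporter, was at 624, 880 and 786 CPM in 18 mo mice, 565, 340 and 244 CPM in 21 mo mice and 815, 772 and 694 CPM in O304 mice. The 21 mo mice were below both other groups without overlap (log2 fold changes −0.99, SE 0.30, adjusted p = 0.0975, and 0.99, SE 0.30, adjusted p = 0.176). Sgk1, a kinase induced by aldosterone and by glucocorticoids, was at 160 ± 42.0 CPM in 21 mo mice and 84.7 ± 14.9 CPM under O304 (± SD of 3 mice; log2 fold change −0.92, SE 0.23, adjusted p = 0.175). Tsc22d3, another steroid-induced gene, was at 60.5, 86.0 and 147.5 CPM against 38.2, 50.2 and 49.9 CPM, with log2 fold change −1.09 (SE 0.30, adjusted p = 0.175). Nr3c2, the mineralocorticoid receptor, and the sodium channel genes Scnn1a, Scnn1b and Scnn1g overlapped between all groups. Cyp11b2, aldosterone synthase, was at 0 counts in all 9 libraries.

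Likeness between genes was measured as the root mean square distance between standardised log2 CPM profiles over the 9 libraries, which is 0 for identical profiles, and is given as a description only. The closest protein-coding genes to Ace were Lrpap1, Lonp1 and Cox15, at distances of 0.068, 0.0768 and 0.083. Those to Agtr1a were Abca3, Car14 and Bckdha (0.0934, 0.11 and 0.129), those to Enpep Slc2a2, Enpp6 and Idh1 (0.193, 0.194 and 0.248), and those to Mme Gramd1b, Slc7a12 and Mcoln2 (0.198, 0.281 and 0.301). Agt was nearest to Wwc1, Fzd4 and Egfl6 (0.153, 0.225 and 0.248) and Mas1 to Polr2l, Usp5 and Mrpl20 (0.209, 0.241 and 0.26). Atp6ap2 was nearest to Rabggtb at 0.227 and Ren1 to Fbln5 at 0.389. All profiles rest on the same 9 libraries, of which replicates 2 and 3 of the 21 mo group stood apart.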

How the data were processed

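Kidney RNA of 9 mice was sequenced, 1 library per mouse, with 3 in each group taken from the sample titles. Per the labels and the study's methods, the authors aligned paired-end reads with HISAT2 2.0.5 and made the deposited counts per gene with featureCounts 1.5.0-p3 on GRCm38, without normalization. The authors computed the FPKM values from each count and gene length. The authors' DESeq2 1.20.0 columns (group means, log2 fold changes, p-values) were not used. Table positions of all 9 genes overlapped RefSeq GRCm38.p6 entries of the same symbol.

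Counts were filtered with filterByExpr (minimum count 10, minimum total 15) and normalized by TMM, and 15902 genes were tested with the quasi-likelihood test of edgeR 4.0.16 (R 4.3.3) on 3 group means, two-sided, with Benjamini-Hochberg adjustment over all of them and a threshold of 0.05. Nearest profiles used log2 CPM with a prior count of 2. limma 3.58.1 and DESeq2 1.42.0 served alternatives. Tests were tried on simulated counts. The edgeR p-values set each difference against a spread between mice, 3 per group, that was estimated jointly over the 3 groups. That spread was unequal, with biological coefficients of variation of 18.1% (18 mo), 44.1% (21 mo) and 20.6% (21 mo/O304). Genes named were all 9, tested genes of the lists with the smallest p-values first (up to 5 per list and comparison), the 3 nearest profiles and markers that moved with a gene. Anpep, Atp6ap1, the sodium channel genes, genes under the filter, Cldn10, Cldn16, the S3 proximal tubule markers and Airn were named after their values were seen. Some genes of the lists and of the nearest profiles are not reported here. The 9 genes and the lists were chosen with earlier results of these data known.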

Additional observations from a re-analysis of the deposited data

How the results depend on the processing

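Values of the 9 genes in 3 comparisons were recomputed under 17 alternatives, 459 values in all. Of these, 439 kept their direction and side of the threshold, 12 moved past it in the same direction and 8 turned direction. All 8 turned when 1 library was left out, and no adjusted p of a turned value was under 0.05. Over such fits, the log2 fold change in 21 mo/O304 against 18 mo ran from −1.11 to 0.10 for Agt, from −1.09 to 0.0764 for Ren1 and from −0.15 to 0.625 for Mme. That in 21 mo/O304 against 21 mo ran from −0.65 to 0.30 for Mme and from −0.0936 to 0.042 for Ctsa, and that of Enpep in 21 mo against 18 mo from −0.346 to 0.0732. In 21 mo against 18 mo, limma voom with sample quality weights placed 4 of the 9 genes, 7 other renin-angiotensin genes, 12 genes of renin cells and macula densa and 5 of the aldosterone pathway past the threshold. DESeq2 placed 1, 1, 4 and 1, and testing every gene with at least 1 count placed 2 genes of renin cells and macula densa, where it called 576 genes over all. In 21 mo/O304 against 21 mo, voom placed 2, 5, 9 and 6 in the same order of lists, and DESeq2 0, 1, 1 and 3. In 21 mo/O304 against 18 mo, voom placed 1 gene of renin cells, where it called 415 genes over all. Leaving out 1 library gave counts from 0 to 3, 0 to 2, 0 to 6 and 0 to 3 in 21 mo against 18 mo and from 0 to 2, 0 to 2, 0 to 4 and 0 to 4 in 21 mo/O304 against 21 mo, each highest count without replicate 1 of the 21 mo group. Over all genes that fit called 4186 and 3808 genes, where all 9 libraries gave 3 and 0, DESeq2 gave 2058 and 931, and voom 8409 and 6528. The cause was not tested. Counts of 0 for all lists came with upper-quartile normalization, with a minimum of 10 counts per library, with fits to the 6 libraries of a comparison and with limma-trend on log2(FPKM + 1), a scale that understates changes of low genes and on which Mas1 had −0.69 in 21 mo against 18 mo.

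With the replicate number as a block, 0 genes of any list passed the threshold in any comparison. The numbers were not taken to pair mice, since the correlation of same-numbered libraries' deviations from their group means ran from −0.13 to 0.175. Under the block the log2 fold change of Ace was −1.90 in 21 mo against 18 mo and 1.55 in 21 mo/O304 against 21 mo, and that of Agt −1.02 (SE 0.26, adjusted p = 0.230) in the latter. Of the 9 genes Mas1 had the fewest counts, 11 to 57 per library, so that counting error weighs most on its values.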

Other observations

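Agt and Mme shared a feature that the groups do not define. In each of the 3 groups replicate 1 had the highest level of both genes and replicate 3 the lowest, an arrangement found for 1.45% of the 15902 genes tested. That order was taken from these genes after their values were seen, so its share does not measure how rare any shared order is. Replicate 1 was highest in all 3 groups for 5.48% of genes, and replicate 3 for 5.64%. Agt was at 111.3, 116 and 97.7 CPM in the 3 mice numbered 1 (18 mo, 21 mo and 21 mo/O304), and at 47.0, 80.2 and 23.4 CPM in the 3 numbered 3. Mme was at 192, 314 and 280 CPM against 117, 92.6 and 99.4 CPM. Of 4 thick ascending limb markers, Umod and Slc12a1 were also highest in replicate 1 of every group, Umod at 4767, 4479 and 2586 CPM. Cldn16 and Cldn10 were not, being highest in replicate 3 under O304, at 77.8% and 103% of the 18 mo mean. Umod was at 2271, 2008 and 1404 CPM in replicate 3. In the 18 mo group it was lowest in replicate 2, at 63.4% of the mean against 76.3% in replicate 3. Of 5 S3 proximal tubule markers, Slc5a10, Slc22a13 and Cyp7b1 were highest in replicate 1 of every group, and Slc7a13 and Slc22a7 were not. Slc5a10 fell from replicate 1 to 3 in every group. It was at 114%, 111% and 75.7% of the 18 mo mean in 18 mo mice and at 98.5%, 40.25% and 9.12% in 21 mo mice. In O304 mice it was at 97.6%, 82.5% and 74.8%. The labels do not say that a number marks a shared batch or day, and the part of tissue makeup in these values was not tested. With the number as a block the SE of the Mme log2 fold change in 21 mo against 18 mo was 0.23 and that of Agt 0.26, beside 0.48 and 0.50 without it, and neither passed the threshold. Since both genes were picked for that order, a lower SE under the block followed from the choice and is not a test of a shared factor.

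The mast cell chymase genes Cma1 and Mcpt4, whose products can form angiotensin II without the converting enzyme, were at or near 0 in most libraries. Cma1 held at most 2 counts in 8 libraries and 8 in replicate 3 of the 21 mo/O304 group, where Mcpt4 held 5.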
